A study of Mus musculus with 12 samples.

Results

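Transcript levels of the genes of RNA polymerase II, the general transcription factors TFIIA to TFIIH, the TBP-associated factors and Mediator were followed in splenic B cells of mice with and without a conditional knockout of Sub1. The members were all genes named through a transcript accession on the array whose symbol begins with Polr2, Gtf2a to Gtf2h, Taf or Med followed by a digit, together with Tbp, and the rule used no measured value. It found 77 genes, measured by 105 probes, among 20018 named genes, and the brightest probe stood for each gene. Of the 77 members, 72 passed the filter on dim probes, which asked for a signal well above background throughout at least 1 group of arrays, and these were tested. Polr2a, Polr2d, Taf1 and Med6 are not analysed here.

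The array measured RNA of splenic B cells in 4 groups of 3 arrays each. Knockout cells came from B1-8hi:Sub1fl/fl-Mb1-Cre mice and control cells from B1-8hi:Sub1fl/fl mice without Cre, either after stimulation or resting (labelled naïve). Stimulated cells had spent 72 h with interleukin-2 (100 U/mL), interleukin-4 (5 ng/mL), interleukin-5 (1.5 ng/mL), CD40 ligand (0.2 ng/mL) and NP-ficoll (0.01 ng/mL), the doses being those of the labels. All groups carried the floxed Sub1 alleles and B1-8hi, a knocked-in immunoglobulin heavy chain allele whose antibodies bind the hapten NP. Mb1-Cre is Cre recombinase placed in the Cd79a gene and active from early B cell development. The control mice did not carry it, so that loss of Sub1 and presence of Cre in Cd79a cannot be told apart. The labels do not say which arrays share an animal, so that a p-value here measures the spread between these RNA samples, which may be partly technical.

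RNA polymerase II makes messenger RNA but does not find promoters by itself. TFIID, made of the TATA-binding protein Tbp and the TAFs, binds core promoters, TFIIA and TFIIB join it, TFIIF brings the polymerase, and TFIIE and TFIIH open the DNA and start transcription. Mediator, built of head, middle and tail parts with a detachable kinase module, carries signals from DNA-bound activators to this assembly. Sub1 encodes PC4, a protein that binds single-stranded DNA and was purified as a cofactor that activators needed in transcription systems rebuilt from TFIID, the other general factors and polymerase.

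Promoter sequence was the first feature that the members shared outside the rule. Promoters were found for 67 of the 77 members in the RefSeq table of the GRCm38.p6 build, 82 promoters in all, each running from 250 bases before to 50 bases after a transcription start. Their median GC content was 58%, against 52.7% for all 32851 promoters of the table, and the median number of CpG dinucleotides was 21, against 7. The GC box, GGGCGG on either strand, stood in 62.2% of the members' promoters and in 35.7% of all promoters. The ETS-type element CCGGAAG stood in 29.3% of the members' promoters, against 8.86% of all promoters, and the YY1-type element AAGATGG in 13.4%, against 6.34%. The 2 elements shared letters in 1 of the members' promoters. The TATA box, TATAAA, was no more frequent among the members, at 13.4% against 13.6% of all promoters. CCAAT was found in 31.7% of the members' promoters, against 37.4% of all promoters. Each motif was searched by itself on both strands, and such matches describe letters and not binding.

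The 4 promoters below belong to members whose levels moved most on stimulation or that stood in the kinase module, and they show the GC-rich, GC-box type that most members share. Capitals mark GGGCGG or its complement CCGCCC, and the start site is base 251 of each window. Taf9 (chr13:100651093-100651392, plus strand, the first of its 2 promoters) and Polr2l (chr7:141475104-141475403, minus strand) were raised by stimulation, while Med13 (chr11:86357547-86357846, minus strand) and Med12 (chrX:101273841-101274140, plus strand) were called lower after it in control cells.
Taf9: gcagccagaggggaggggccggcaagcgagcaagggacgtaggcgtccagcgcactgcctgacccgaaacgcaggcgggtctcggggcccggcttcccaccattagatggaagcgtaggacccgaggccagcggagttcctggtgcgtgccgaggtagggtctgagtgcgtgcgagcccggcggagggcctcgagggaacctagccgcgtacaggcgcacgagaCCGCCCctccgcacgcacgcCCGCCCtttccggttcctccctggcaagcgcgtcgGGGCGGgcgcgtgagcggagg
Polr2l: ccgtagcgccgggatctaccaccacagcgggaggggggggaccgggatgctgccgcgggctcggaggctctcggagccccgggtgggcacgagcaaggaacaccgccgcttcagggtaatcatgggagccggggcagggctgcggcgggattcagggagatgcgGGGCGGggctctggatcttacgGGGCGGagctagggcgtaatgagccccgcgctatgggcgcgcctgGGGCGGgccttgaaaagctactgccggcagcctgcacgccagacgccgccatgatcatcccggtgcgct
Med13: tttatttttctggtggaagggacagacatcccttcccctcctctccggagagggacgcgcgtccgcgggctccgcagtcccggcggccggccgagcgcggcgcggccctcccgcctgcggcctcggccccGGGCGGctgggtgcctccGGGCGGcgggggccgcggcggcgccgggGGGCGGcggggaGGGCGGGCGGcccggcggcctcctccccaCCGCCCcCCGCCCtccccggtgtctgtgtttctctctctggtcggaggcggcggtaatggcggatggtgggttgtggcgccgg
Med12: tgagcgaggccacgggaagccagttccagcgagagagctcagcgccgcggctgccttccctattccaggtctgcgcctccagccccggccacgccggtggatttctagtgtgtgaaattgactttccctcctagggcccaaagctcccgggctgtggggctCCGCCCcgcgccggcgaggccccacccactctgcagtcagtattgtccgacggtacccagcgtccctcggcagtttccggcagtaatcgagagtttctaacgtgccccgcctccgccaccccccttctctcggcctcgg
The windows held 72.0%, 71.0%, 78.3% and 66.3% G and C in the order Taf9, Polr2l, Med13 and Med12. Taf9 had 3 matches to the GC box, Polr2l had 3, Med13 had 7 with 2 of them overlapping, and Med12 had 1. The element thus stood before Taf9 and Polr2l, which were raised, and before Med12, which was lowered. Med13 is shown for its place in the kinase module, since its dim probe passed the filter only through resting control cells. Of the 17 promoters of the 14 members raised in control cells, 10 held a GC box and 4 a TATA box. The 3 promoters found for the members called lower, Med13 among them, each held a GC box.

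Levels below are log2 intensities relative to the 75th percentile of all non-control spots on the same array, so that a difference of 1 is a doubling of this scaled intensity. For a given probe they are compared across arrays, which depends on the scaling, because the share of spots above background differed widely between arrays. They cannot be compared between genes. All 8 B cell markers, among them Cd79a and Pax5, were above background on at least 1 array of every group, and summed to 532 to 646.9 times the array's 75th percentile in stimulated knockout cells, 489.1 to 688.2 in stimulated control cells, 641.8 to 759.5 in resting knockout cells and 865.8 to 993.8 in resting control cells. Sub1 itself was at 6.84 ± 0.11 in stimulated knockout cells and 8.05 ± 0.22 in stimulated control cells (SD, n = 3 each), a log2 change of -1.21 with limma's adjusted p of 0.0114. Over 27 other settings this change lay between -1.77 and -0.56, and it did not pass in 7 of them, among them those without the first or the second stimulated knockout array. In resting cells it was at 5.65 ± 0.24 in the knockout and 6.03 ± 0.04 in the control (SD, n = 3 each), a change of -0.38 that did not pass (limma adjusted p = 0.268). The labels do not give the floxed part of Sub1, so the probe may lie outside the deletion. Between 24.3% and 76.8% of an array's spots were well above background, and between 62 and 72 of the 72 tested members, with the second stimulated control array lowest in both. The 2 arrays of control replicate 1 had the Y-linked transcripts Ddx3y and Eif2s3y above background and Xist below it, unlike the other 10 arrays. Replicates 1 and 2 of each group lay on slide 1 and replicate 3 on slide 2.

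**Figure D1:**
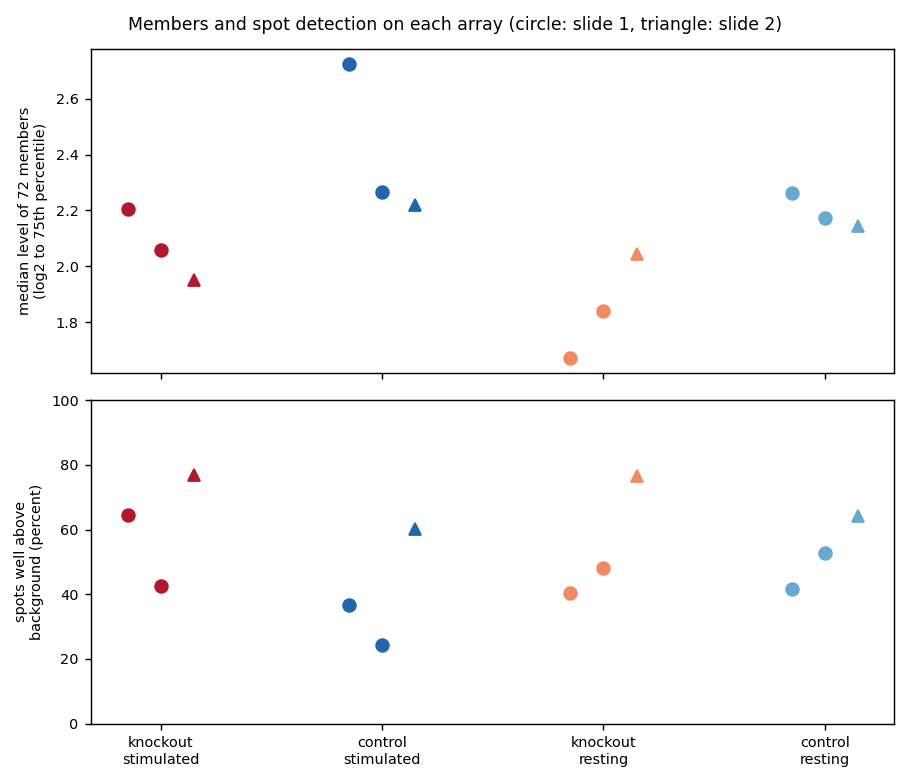
Median log2 level of the 72 tested members on each array (top) and percent of the array's spots well above background (bottom), with circles for slide 1 and triangles for slide 2 and the groups in the order knockout stimulated, control stimulated, knockout resting, control resting. The member medians span 1.95 to 2.21 in stimulated knockout cells, 2.22 to 2.72 in stimulated control cells, 1.67 to 2.04 in resting knockout cells and 2.14 to 2.26 in resting control cells, while the share of spots above background spans 24.3% to 76.8%.

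Stimulation raised a minority of the machinery in both genotypes. In knockout cells 9 of 72 members rose and 0 fell at limma's adjusted p under 0.05, which is 12.5% of the members beside 16.1% of all features tested (10.9% higher and 5.2% lower). At an unadjusted p under 0.05 there were 2 lower, Taf7 and Taf8 (9.57% of all features). In control cells 14 rose and 4 fell, 25% of the members beside 27.8% of all features (14.7% higher and 13.1% lower). The labels do not say that equal replicate numbers pair these control arrays, and the slide goes with the number. With the number as a block 15 rose and 7 fell, Med30 being added among the rises and Taf1c, Med1 and Taf7l among the falls. All 9 members raised in knockout cells, namely Med22, Taf1d, Taf9, Med9, Gtf2f1, Med25, Polr2l, Gtf2a2 and Polr2c, were among the 14 raised in control cells. Counted over both directions, the share of calls among the members was thus near or below that of all features. By direction, 12.5% of the members rose beside 10.9% of all features in knockout cells, and 19.4% beside 14.7% in control cells. Falls made up 0% beside 5.2% in knockout cells and 5.56% beside 13.1% in control cells. Without a test, stimulated arrays all lay above resting arrays in 27 members in knockout cells (21.8% of all features) and 28 in control cells (20.3%), and all below in 5 (12.1%) and 9 (19.6%). Changes were above 0 for 54 members in knockout cells, or 75% beside 56.9% of all features, and for 49 in control cells, or 68.1% beside 52%. Single arrays weighed on the counts. Without the first stimulated knockout array 1 member was called in knockout cells, without either of the first 2 resting knockout arrays 2, and without the second resting control array 9 in control cells. Scaling to each array's median left no call in knockout cells and only Taf9 in control cells, and the percentile over detected spots gave 5 higher and 10 lower in knockout and 10 higher and 19 lower in control cells. Under 75th percentile, quantile and detected-spot scaling alike, 8 members were higher in control cells, namely Med22, Med25, Med9, Polr2c, Polr2l, Taf1d, Taf6 and Taf9. The median change of the members was 0.30 in knockout cells and 0.25 in control cells, against 0.10 and 0.04 for all features. The size of these medians depended on the scaling between arrays. With quantile normalization they were 0.10 in knockout and 0.03 in control cells, and with the percentile over spots detected on all arrays they were -0.03 and -0.14. Relative to the median of all features the members stood at 0.20 in knockout and 0.21 in control cells, and at 0.09 and 0.18 with quantile normalization. The median and detected-spot scalings shift all spots of an array by the same amount. They therefore leave such relative values as they are by construction, and among these scalings only quantile normalization could change them.

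TFIID held the member with the largest rise in control cells, Taf9, whose product pairs with Taf6 through a histone fold and also serves in the SAGA coactivator. In knockout cells Taf9 was at 4.85, 4.64 and 4.20 on the stimulated arrays, against 3.65, 3.66 and 3.51 on the resting arrays. In control cells it was at 5.18, 4.74 and 4.74 when stimulated, against 3.59, 3.74 and 3.51 at rest. Every stimulated array lay above every resting array in both genotypes, by 0.96 (SE 0.21, limma adjusted p = 0.0113) in knockout and 1.27 (SE 0.21, limma adjusted p = 0.00123), a 2.41-fold rise, in control cells. The rise in control cells was 1.29 on slide 1 and 1.23 on slide 2. Taf6, the histone-fold partner of Taf9, was at 3.83, 3.80 and 3.80 in stimulated knockout cells, against 3.05, 3.35 and 3.35 in resting ones. In control cells Taf6 was at 4.64, 4.18 and 4.34, against 3.71, 3.65 and 3.52. Its groups did not overlap in either genotype, but only the change in control cells of 0.76 (limma adjusted p = 0.009) passed, that in knockout cells being 0.56 (limma adjusted p = 0.0602). Taf9b, a close relative of Taf9, rose by 0.70 in control cells (limma adjusted p = 0.027), with a change of 0.50 in knockout cells that did not pass. Its dim probe was well above background on 2 of the 3 stimulated control arrays, and the call was kept in 14 of 26 other settings.

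Taf7 and Taf8 went the other way. Taf7 binds Taf1 and restrains its enzyme activity, and Taf8 joins Taf10 in the core of TFIID. Taf7 was at -0.46, 0.12 and -0.32 in stimulated knockout cells, against 0.23, 0.71 and 0.32 in resting ones, and at -0.41, -0.86 and -0.35 in stimulated control cells, against 0.16, 0.60 and 0.26. Stimulated arrays lay below resting arrays in both genotypes, and 2 of the 3 stimulated control arrays had the probe well above background. Taf8 was at 1.92, 1.68 and 1.58 in stimulated knockout cells, against 2.20, 2.35 and 2.04 in resting ones. In control cells Taf8 was at 1.89, 1.70 and 1.80, against 2.68, 2.57 and 2.26. Again the groups did not overlap. The values in knockout cells, -0.64 for Taf7 (limma adjusted p = 0.103) and -0.47 for Taf8 (0.123), did not pass, and in control cells Taf7 fell by 0.88 (limma adjusted p = 0.0176) and Taf8 by 0.71 (limma adjusted p = 0.0154).

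Tbp, the subunit that binds the TATA box, was at 1.47, 1.41 and 1.22 in stimulated knockout cells, against 0.83, 1.11 and 1.33 in resting ones, and at 1.93, 1.26 and 1.51 in stimulated control cells, against 1.68, 1.46 and 1.50. The groups overlapped in both genotypes and neither change passed, at 0.28 and 0.02. The 10 tested TFIID members not called, Tbp, Taf2, Taf3, Taf4, Taf5, Taf7l, Taf10, Taf11, Taf12 and Taf13, had values of -0.29 to 0.66 in knockout and -0.73 to 0.68 in control cells. Over the 15 tested members of TFIID the median change was 0.31 in knockout cells, with 1 called higher, and 0.23 in control cells, with 3 called higher and 2 lower. With the detected-spot percentile these medians were -0.02 and -0.16, so that their sign depended on the scaling. Relative to all features they were 0.21 in knockout and 0.19 in control cells. These became 0.10 and 0.20 with quantile normalization.

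Among the polymerase's own subunits Polr2l (RPB10), a small subunit shared by the nuclear RNA polymerases, changed most. Polr2l was at 6.08, 6.21 and 6.03 in stimulated knockout cells, against 5.10, 5.34 and 5.61 in resting ones. In control cells it was at 6.94, 6.31 and 6.76 when stimulated, against 5.40, 5.56 and 5.55 at rest. No stimulated array overlapped a resting one, and the rise was 0.76 (limma adjusted p = 0.0328) in knockout and 1.17 (limma adjusted p = 0.00188) in control cells. In control cells slide 1 gave 1.14 and slide 2 gave 1.21. A second, dim Polr2l probe did not show it, with -0.02 in knockout and 0.02 in control cells. Polr2c (RPB3), which with Polr2j (RPB11) seeds assembly of the enzyme, was at 4.12, 3.98 and 4.0 in stimulated knockout cells, against 3.1, 3.40 and 3.53 in resting ones. In control cells Polr2c was at 4.46, 4.05 and 4.39, against 3.44, 3.40 and 3.49. It rose in both genotypes, by 0.69 (limma adjusted p = 0.0274) in knockout and 0.86 (limma adjusted p = 0.00524) in control cells. Polr2j rose by 0.74 in control cells (limma adjusted p = 0.016), and its change of 0.51 in knockout cells did not pass (0.114).

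The other 8 tested polymerase genes, Polr2b, Polr2e, Polr2f, Polr2g, Polr2h, Polr2i, Polr2k and Polr2m, had changes of 0.18 to 0.57 in knockout and -0.25 to 0.49 in control cells, none past the threshold. Polr2b encodes the second largest subunit and Polr2g (RPB7) part of the stalk, and Polr2g alone had a value below 0 in control cells. The median change over the 11 polymerase genes was 0.46 in knockout and 0.36 in control cells. Under quantile normalization the medians were 0.09 and 0.10, and with the detected-spot percentile 0.13 and -0.03. Relative to all features they were 0.36 in knockout and 0.32 in control cells, and 0.09 and 0.25 with quantile normalization.

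**Figure D2:**
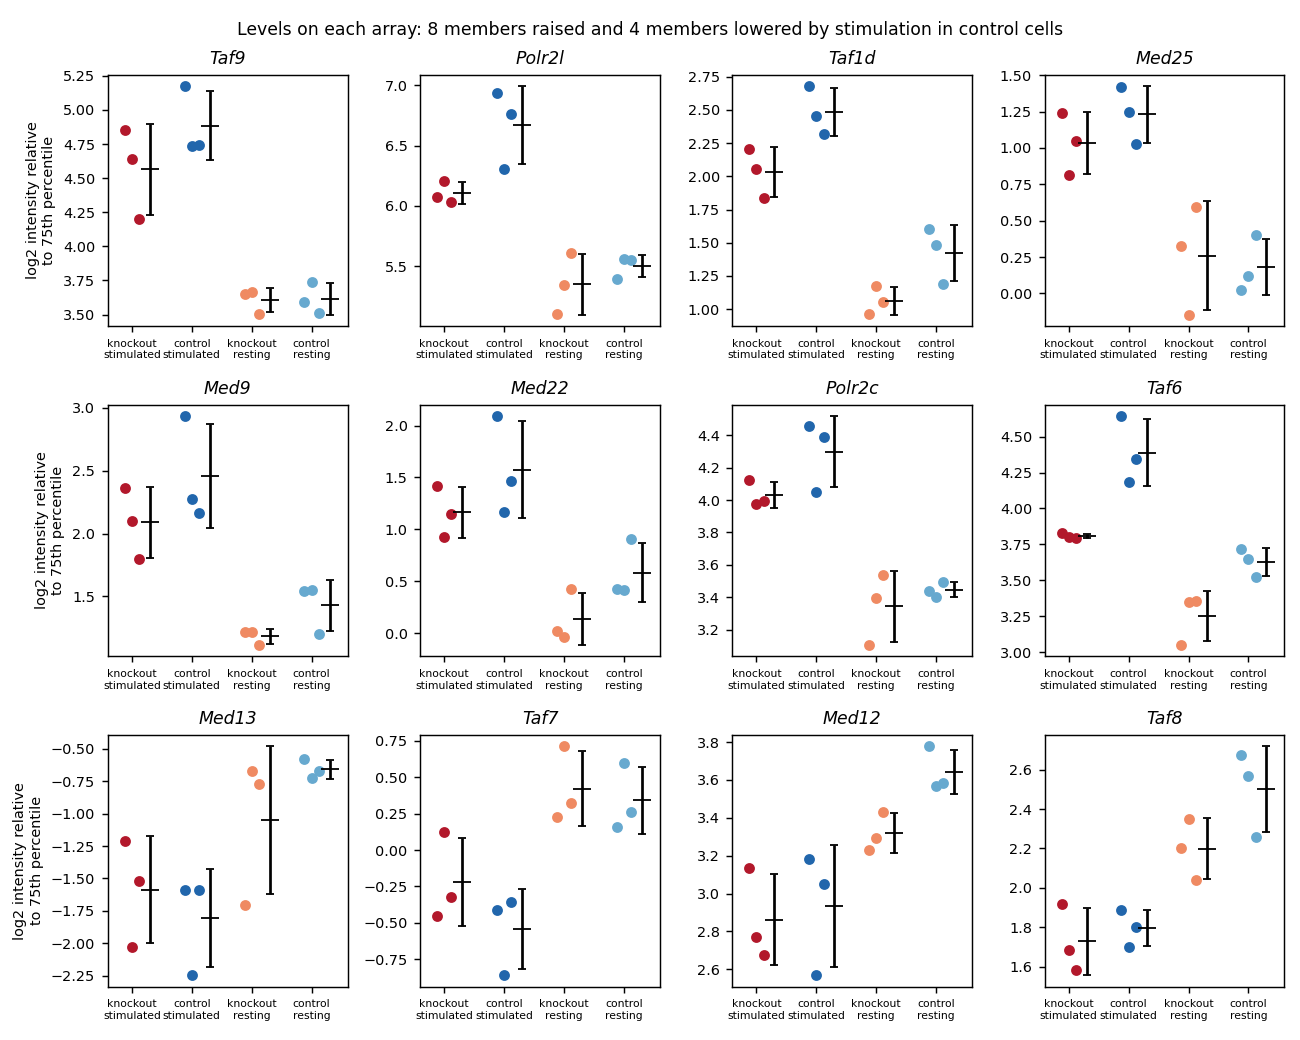
Log2 level relative to the array's 75th percentile of the 8 members with the largest called rises and the 4 called falls on stimulation of control cells, with each point an array, each bar a group mean ± SD (n = 3) and groups in the order knockout stimulated, control stimulated, knockout resting, control resting. Taf9 and Polr2l stand higher on every stimulated array than on any resting array, while Taf7 and Taf8 stand lower.

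Among the other general factors, TFIIA and TFIIF had a called member in both genotypes and TFIIH in control cells. Gtf2f1, the large subunit of TFIIF, was at 5.19, 4.99 and 5.08 in stimulated knockout cells, against 4.03, 4.40 and 4.48 in resting ones, and at 5.63, 5.09 and 5.45 in stimulated control cells, against 4.64, 4.62 and 4.67. It rose by 0.78 in knockout (limma adjusted p = 0.0209) and 0.75 in control cells (limma adjusted p = 0.0159), with no overlap in either genotype. Gtf2a2, the small subunit of TFIIA, rose by 0.72 in knockout (limma adjusted p = 0.0469) and 0.64 in control cells (limma adjusted p = 0.0481), both close to the threshold, and passed in 11 and 5 of 27 other settings. Gtf2a1, which encodes the large TFIIA subunits, had changes of 0.00 and 0.01. Gtf2h4 (p52), of the TFIIH core, rose by 0.69 in control cells (limma adjusted p = 0.0413), a call kept in 11 of 27 other settings, and its change of 0.53 in knockout cells did not pass (0.155). Gtf2b, which is TFIIB, was at 2.49, 2.35 and 2.84 in stimulated knockout cells, against 1.88, 2.15 and 2.68 in resting ones. In control cells Gtf2b was at 3.21, 2.77 and 3.24, against 2.52, 2.38 and 2.71. The control groups did not overlap, the knockout groups did, and neither change passed, at 0.32 (limma adjusted p = 0.482) and 0.53 (0.146). Of Gtf2e1 and Gtf2e2, the TFIIE subunits, neither passed in either genotype. Nor did Gtf2f2, with 0.35 in knockout and 0.55 in control cells, the other TFIIH core genes Gtf2h1, Gtf2h2, Gtf2h3 and Gtf2h5, with 0.14 to 0.54 and 0.23 to 0.63, the RNA-binding Taf15, with -0.09 and 0.17, or the SAGA genes Taf5l, with 0.31 and 0.36, and Taf6l, with 0.33 and -0.29.

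Taf1d, despite its name, belongs to SL1, the factor that brings RNA polymerase I to ribosomal RNA genes. It was at 2.21, 2.06 and 1.83 in stimulated knockout cells, against 0.96, 1.17 and 1.06 in resting ones, and at 2.68, 2.45 and 2.32 in stimulated control cells, against 1.60, 1.48 and 1.19. The groups lay well apart, and the rise was 0.97 (limma adjusted p = 0.00594) in knockout and 1.06 (limma adjusted p = 0.00186) in control cells. The other tested SL1 genes, Taf1b and Taf1c, were not called, with changes of -0.43 and -0.34 in knockout cells and -0.33 and -0.64 in control cells. For Taf1c the value in control cells missed the threshold (limma adjusted p = 0.0582) and passed with the replicate number as a block (0.00853).

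Mediator was mixed, with called rises in its core in both genotypes, while Med12 of its kinase module fell in control cells. Med22, of the head, was at 1.42, 0.92 and 1.15 in stimulated knockout cells, against 0.02, -0.03 and 0.42 in resting ones, and at 2.09, 1.17 and 1.47 in stimulated control cells, against 0.43, 0.41 and 0.91. Med9, of the middle, was at 2.37, 2.10 and 1.80 in stimulated knockout cells, against 1.22, 1.22 and 1.11, and at 2.93, 2.27 and 2.17 in stimulated control cells, against 1.54, 1.55 and 1.20. Med25, a tail-associated subunit that activators bind, was at 1.24, 0.81 and 1.05 in stimulated knockout cells, against 0.33, -0.15 and 0.60, and at 1.42, 1.25 and 1.03 in stimulated control cells, against 0.02, 0.12 and 0.40. In all 3 genes every stimulated array lay above every resting array of its genotype. Med22 rose by 1.03 in knockout (limma adjusted p = 0.027) and 0.99 in control cells (limma adjusted p = 0.0193), Med9 by 0.91 (0.0273) and 1.03 (0.00858), and Med25 by 0.78 (0.0449) and 1.05 (0.0062). On slide 2 alone the rise of Med22 in control cells was 0.56 and that of Med25 0.63, against 1.21 and 1.26 on slide 1.

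The kinase module holds Cdk8 or Cdk19, cyclin C, Med12, which activates the kinase, and Med13, which ties the module to the core. Med12 was at 3.13, 2.77 and 2.68 in stimulated knockout cells, against 3.23, 3.29 and 3.43 in resting ones. In control cells Med12 was at 3.18, 2.57 and 3.05, against 3.78, 3.57 and 3.59. Stimulated arrays lay below resting arrays in both genotypes, and the fall of 0.71 in control cells passed (limma adjusted p = 0.0272), while the change of -0.46 in knockout cells did not (0.188). Med13 was at -1.21, -2.03 and -1.52 in stimulated knockout cells, against -1.71, -0.68 and -0.77 in resting ones, which overlap. In control cells Med13 was at -1.59, -2.25 and -1.59 when stimulated, against -0.58, -0.73 and -0.67 at rest. This dim probe was well above background on 2 arrays of each knockout group and 1 stimulated control array, and entered the test only through the resting control group, where it was on all 3. Its change of -1.15 in control cells is counted among the 4 falls (limma adjusted p = 0.0203), but a probe that passed the filter only where it was high had to differ, and it is not taken as support for a change of the module. The change in knockout cells was -0.53 (0.333). Med13l, whose levels are given with the paralogues, also entered only through the resting control group and was not called, with 0.39 in knockout and -0.74 in control cells. None of the genes outside the rule that belong to the module was called lower. Cdk8 rose by 0.70 in control cells (limma adjusted p = 0.0498), just inside the threshold, with 0.65 in knockout cells (0.0958), Ccnc had changes of 0.56 and 0.38 and Cdk19 of -0.11 and -0.48, none of which passed.

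**Figure D3:**
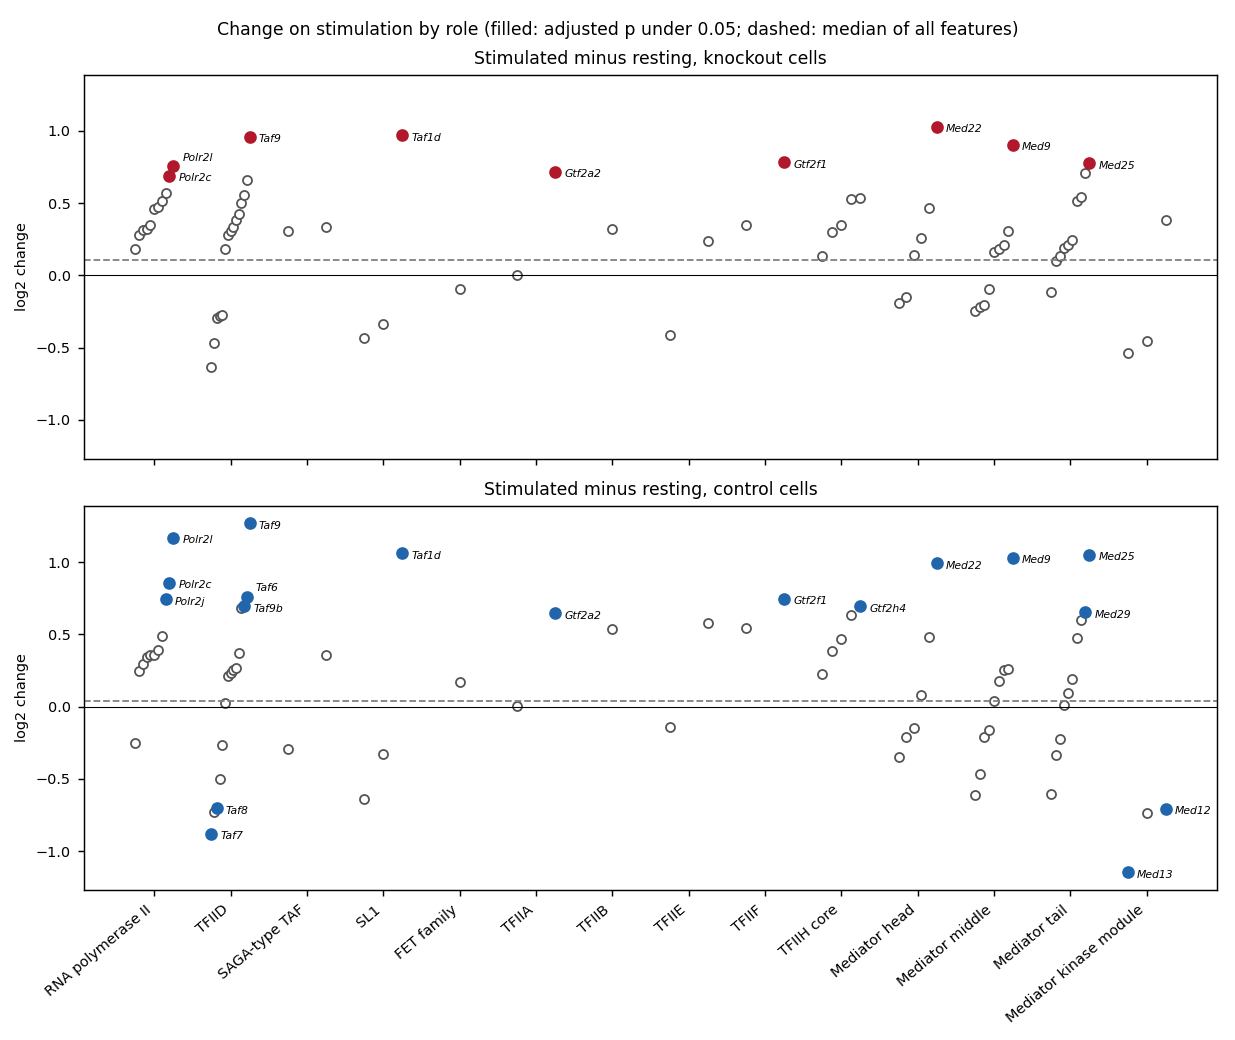
Log2 change on stimulation of each tested member, grouped by role, in knockout cells (upper panel) and control cells (lower panel), with filled points past an adjusted p of 0.05 and a dashed line at the median of all features. In knockout cells 9 points are filled, all above 0, and in control cells 18 are filled, of which Med12, Med13, Taf7 and Taf8 lie below 0.

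Among the other Mediator genes, Med29, a tail subunit, rose by 0.65 in control cells (limma adjusted p = 0.0131) and had a change of 0.10 in knockout cells. Med30 had changes of 0.71 in knockout and 0.60 in control cells, which missed the threshold (limma adjusted p = 0.0539 and 0.0723), that in control cells passing with the replicate number as a block (0.0412). Med1, the subunit best known for binding nuclear receptors, was at 3.94, 3.94 and 3.03 in stimulated knockout cells, against 4.07, 4.04 and 3.54, and at 3.72, 3.71 and 3.40 in stimulated control cells, against 4.49, 4.31 and 3.86. The third array of each group, on slide 2, was the lowest of its group. The change in control cells was -0.61 (limma adjusted p = 0.157, and 0.0213 with the replicate block), and that in knockout cells -0.25. In a fit of all probes a second Med1 probe gave -0.62 in control cells and passed (limma adjusted p = 0.0186), while the other two gave -0.35 and 0.08 and did not. Med14, the backbone that joins the parts of the core, had values of 0.52 in knockout and 0.01 in control cells, and Med17, the scaffold of the head, 0.26 and -0.35, none of which passed. The 21 Mediator core genes not called in either genotype, these included, had values of -0.25 to 0.71 in knockout and -0.61 to 0.60 in control cells. Median changes were 0.20 in knockout and -0.03 in control cells for the head (6 genes), 0.16 and 0.04 for the middle (9 genes), and 0.23 and 0.14 for the tail (10 genes). All 3 were below 0 in both genotypes with the detected-spot percentile. Relative to all features they were 0.10 and -0.07 for the head, 0.06 and 0.003 for the middle, and 0.12 and 0.11 for the tail, which that scaling cannot alter.

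The cell type markers moved with stimulation as well. In control cells 5 of 6 plasma cell markers rose, and the list summed to 397.1 to 633.3 times the array's 75th percentile in stimulated and 89.58 to 108.8 in resting cells. In knockout cells 3 rose and Jchain fell, with sums of 196.5 to 257.8 in stimulated and 159.2 to 218.2 in resting cells. Of 8 B cell markers 1 fell in knockout and 7 in control cells. Of 7 tested T cell markers Cd5 fell in knockout cells, and Cd8a and Cd5 fell in control cells. The T cell list had sums of 63.71 to 65.05 in stimulated and 81.81 to 90.22 in resting knockout cells. In control cells its sums were 110 to 168.7 and 93.87 to 105.5, and Cd8a was above background on no stimulated array. The NK cell list had sums of 217.8 to 421.9 in stimulated and 7.387 to 10.43 in resting knockout cells, and 34.99 to 36.54 and 5.278 to 8.859 in control cells. Of its 6 tested markers 3 rose in knockout cells, led by the granzyme genes Gzmb (8.79) and Gzma (6.59), and 2 in control cells, where Gzmb was at least 57.7-fold higher and Gzma rose by 4.16. All 3 tested erythroid markers fell in knockout cells, with sums of 1.895 to 7.87 in stimulated and 38.79 to 158 in resting cells. In control cells 1 fell, with sums of 0.2854 to 1.046 and 3.14 to 50.82, the haemoglobin gene Hba-a1 being at least 60.3-fold lower. With the replicate block Ms4a1, Itgam and Slc4a1 were also called lower in control cells and Jchain higher. Of 11 tested myeloid markers 4 fell in knockout cells, with sums of 29.58 to 37.81 in stimulated and 87.35 to 143.6 in resting cells, and 7 fell in control cells, with 11.23 to 27.09 and 46.95 to 78.31. In stimulated control cells C1qa, Mpo and S100a8 were above background on no array. In samples of mixed cells, fewer cells of a type and less RNA per cell cannot be told apart, and the part of these markers in the members' changes was not tested.

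Neither genotype comparison called a member. In stimulated cells 0 of 72 members passed an adjusted p of 0.05 in limma, beside 3.46% of all features tested (1.21% higher and 2.26% lower), and 11 members had an unadjusted p under 0.05, 15.3% of them beside 22.1% of all features. All 11 were lower in knockout cells, while 11.9% of all features were lower and 10.2% higher at that level. The median change was -0.26, against -0.02 for all features, and 58 members, or 80.6%, lay below 0 beside 51% of all features. In 12 members, or 16.7%, every knockout array was below every control array (14% of all features), and in none was it above (11.1%). The scaling moved this pattern, since the median was 0.03 with quantile normalization, 0.14 with the detected-spot percentile and -0.82 with median scaling. Relative to all features the median was -0.25, and -0.06 with quantile normalization.

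Med29 came nearest to the threshold in stimulated cells. It was at 2.20, 2.29 and 2.34 in stimulated knockout cells, against 3.03, 2.70 and 3.05 in stimulated control cells, and at 2.22, 2.07 and 2.24 in resting knockout cells, against 2.26, 2.22 and 2.33 in resting control cells. The stimulated control arrays thus stood above all other arrays. The change between genotypes in stimulated cells was -0.65 (SE 0.17, limma adjusted p = 0.0618). Slide 1 gave -0.62 and slide 2 gave -0.71. With the replicate number as a block the adjusted p was 0.0348, and with the slide as a block 0.0396, so that the call rests on this choice. A second Med29 probe gave -0.60 (limma adjusted p = 0.167). Leaving out the second stimulated control array, the one with the fewest spots above background, also brought Med29 past the threshold.

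Taf3, whose finger domain reads methylated histone H3, was at 0.19, -0.31 and 0.20 in stimulated knockout cells, against 1.13, 0.73 and 0.90 in stimulated control cells. In resting cells it was at -0.04, 0.79 and 0.17 in the knockout, against 0.18, 0.18 and 0.36 in the control. The groups were apart in stimulated cells and overlapped at rest, and the change in stimulated cells was -0.90 (SE 0.25, limma adjusted p = 0.0791). The second Taf3 probe, which was dimmer, gave -0.04 for the same comparison. Taf6, whose levels were given above, differed by -0.58 between genotypes in stimulated cells and did not pass (limma adjusted p = 0.107). Taf5l, a TAF-like subunit of SAGA, was at 2.45, 2.06 and 2.58 in stimulated knockout cells, against 3.1, 2.88 and 2.90 in control cells, a change of -0.59 (limma adjusted p = 0.117) without overlap. Of 27 other settings, Taf3 and Taf6 passed in 2 each and Taf5l in 1. For Tbp the change was -0.20 and for Gtf2b -0.51, and neither passed. A second, dimmer Tbp probe had the opposite sign.

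In resting cells 0 of 72 members passed in limma, beside 0.0131% of all features (0.0087% higher and 0.00435% lower), and 11 members, again 15.3%, had an unadjusted p under 0.05, beside 19.7% of all features. All 11 were lower in knockout cells, while 11.4% of all features were lower and 8.31% higher. The median change was -0.33, against -0.21 for all features, and 65 members, or 90.3%, lay below 0 beside 62.2% of all features. Every knockout array was below every control array in 27 members, or 37.5% (26.7% of all features), and above in none (9.93%). With quantile normalization the median was -0.04, with the detected-spot percentile 0.03 and with median scaling -0.93. Relative to all features it was -0.12, and 0.01 with quantile normalization.

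The 4 members with the smallest p at rest were Taf5l, Med17, Med30 and Gtf2a1. Taf5l was at 2.0, 1.92 and 2.25 in resting knockout cells, against 2.70, 2.49 and 2.60 in resting control cells, a change of -0.54 (SE 0.19, limma adjusted p = 0.223). Med17 was at 0.05, 0.32 and 0.35, against 0.96, 0.76 and 0.76, a change of -0.58 (limma adjusted p = 0.233). Med30 was at 1.60, 2.0 and 1.73, against 2.43, 2.46 and 2.14, and Gtf2a1 at 1.87, 2.22 and 2.17, against 2.64, 2.61 and 2.40, with changes of -0.57 and -0.46. In all 4 genes every knockout array lay below every control array, and none passed after adjustment over all features. For Tbp the value was -0.46 (limma adjusted p = 0.258), and for the 11 polymerase genes it was -0.52 to -0.10. A second, dimmer Tbp probe had the opposite sign at rest. The median half-width of the 95% confidence interval of a member was 0.47 in either state. For 58 members in stimulated cells and 59 at rest the interval lay within -1 to 1, so that a change of 2-fold or more was outside it under 75th percentile scaling. This count depends on the scaling, since median scaling put the median member at -0.82 in stimulated and -0.93 in resting cells.

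**Figure D4:**
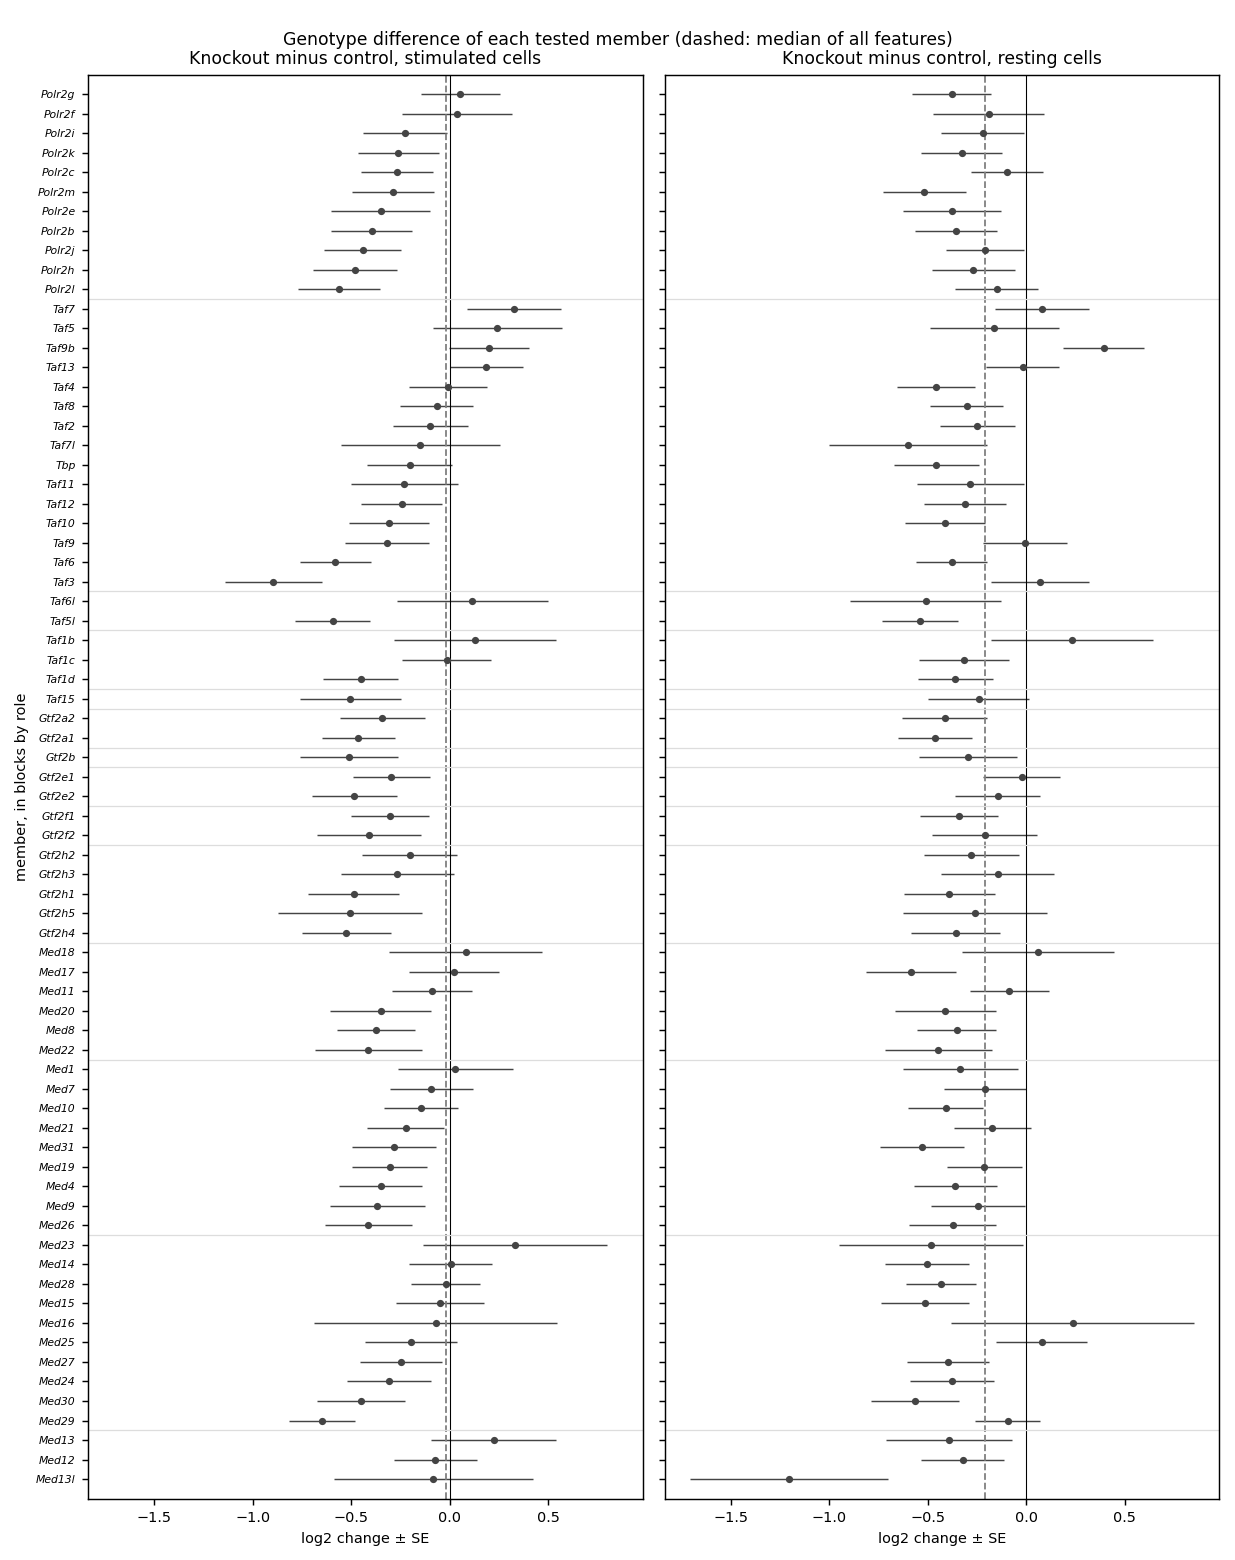
Log2 change between knockout and control ± SE of the 72 tested members in stimulated cells (left) and resting cells (right), with a dashed line at the median of all features. Most points lie below 0 in both states, with medians of -0.26 and -0.33, and no member passed an adjusted p of 0.05.

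Markers of other cells differed between the genotypes in the same arrays. In stimulated cells 9 markers rose and 7 fell. All 6 tested NK cell markers had changes above 0 and 3 rose, with sums of 217.8 to 421.9 times the 75th percentile in knockout and 34.99 to 36.54 in control cells, while at rest Klrb1c and Gzmb were above background on no control array. Of 11 myeloid markers 4 rose, with sums of 29.58 to 37.81 and 11.23 to 27.09, and 5 of 6 plasma cell markers fell, with sums of 196.5 to 257.8 and 397.1 to 633.3. Hba-a1, at least 10.8-fold higher, was the only called one of 3 erythroid markers. Of 7 T cell markers 5 had changes above 0, with a median of 0.72. Yet their sums were lower, at 63.71 to 65.05 in stimulated knockout and 110 to 168.7 in stimulated control cells. At rest the T cell sums were 81.81 to 90.22 in knockout and 93.87 to 105.5 in control cells. Cd3g rose by 2.24 (limma adjusted p = 0.0481, and 0.0528 with the replicate block) and Cd2 fell by 1.23. With the block the plasma cell marker Sdc1 was called lower too. In resting cells 0 of the 41 markers of 6 cell types passed in limma, against 13 higher and 6 lower at an unadjusted p under 0.05, among them 6 of the myeloid markers, all higher, and 5 of 8 B cell markers, all lower. The sums were 87.35 to 143.6 in knockout and 46.95 to 78.31 in control cells for the myeloid list and 38.79 to 158 and 3.14 to 50.82 for the 3 tested erythroid markers. Cd79a, the gene that carries Cre, was at 2.58 ± 0.36 in stimulated knockout and 3.67 ± 0.29 in stimulated control cells (SD, n = 3 each), lower by 1.10 (limma adjusted p = 0.0343), a call lost in 15 of 27 other settings. At rest it was at 3.01 ± 0.03 in knockout and 4.56 ± 0.26 in control cells (SD, n = 3 each), a change of -1.54 (limma adjusted p = 0.0948) that passed in 7 of 27 other settings, among them the replicate block (0.0386). The part of these differences in the members' levels was not tested.

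The response to stimulation was not called different between genotypes for any member. In the interaction 0 of 72 members passed in limma, beside 0.144% of all features (0.0522% higher and 0.0914% lower). With an unadjusted p under 0.05 there were 2 members, Taf3 and Med29, or 2.78%, beside 10.6% of all features. Both had a value below 0, as did 3.96% of all features, while 6.68% had a value above 0. The change of Taf3 on stimulation was lower in knockout cells by 0.97 (SE 0.35, limma adjusted p = 0.335) and that of Med29 by 0.55 (SE 0.23, 0.436). Med17 and Med14 had differences of 0.61 (0.565) and 0.51 (0.616). Other probes of these genes gave 0.07 for Taf3, -0.11 for Med29 and -0.37 and 0.13 for Med14. A value below 0 here means a lower change in knockout cells, such as a smaller rise or a larger fall. For a gene that falls, a value above 0 can thus be the smaller response. The second Taf3 probe did not show a value below 0. Med12, Med13, Taf7 and Taf8, which were called lower in control but not in knockout cells, had differences in response of 0.25, 0.61, 0.24 and 0.24, none past the threshold, so that a difference between genotypes was not shown. The median half-width of the interaction's 95% interval over the members was 0.67.

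Several members have a paralogue, often known from germ cells. Taf4b, whose protein was first described in human B cells, was well above background on 3 of 12 arrays and was not tested, while Taf4 was above background on all 12. Taf5 was above background on 10 arrays and its relative Taf5l on all 12, and neither Taf5 nor Taf6l passed in any comparison. Taf7l was above background on all 12 arrays, at 1.25, 1.54 and 1.90 in stimulated knockout cells, against 1.38, 1.56 and 2.59 in resting ones, and at 1.63, 1.25 and 2.26 in stimulated control cells, against 2.36, 1.91 and 3.04. The third array of each group, on slide 2, was its highest, and the change of -0.73 in control cells (limma adjusted p = 0.228) passed with the replicate block (0.0275). Med12l was above background on 4 arrays, Taf7l2 and Taf1a on 5 each, and Gtf2a1l, known from testis, on none, so these were not tested. Med13l, above background on 7 arrays, was at -2.16, -2.77 and -2.51 in stimulated knockout cells, against -2.96, -4.03 and -1.61, and at -2.55, -2.41 and -2.23 in stimulated control cells, against -1.51, -2.21 and -1.25. Its resting knockout arrays spread over more than 2 log2 units, and its resting change of -1.21 between genotypes did not pass (limma adjusted p = 0.24).

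Different probes of a gene did not always move together. Of 21 members with more than 1 tested probe, a probe with the opposite sign was found for 5 on stimulation of knockout cells, 2 on stimulation of control cells, 7 between genotypes in stimulated cells and 6 at rest. In the interaction it was found for 9. Polr2l in knockout cells was the only called member among them. The second Polr2c probe gave 0.78 and 0.75 for stimulation of knockout and control cells, against 0.69 and 0.86 for the first, and did not pass. A second Polr2i probe passed in control cells (0.62, limma adjusted p = 0.0409), where the brightest gave 0.35 and did not. The brightest Med16 probe was highest on the slide 2 array of each group, for example 7.85, 7.89 and 9.84 in stimulated control cells, and Med16 passed in no comparison.

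Other genes of the transcription machinery, on lists written down by function, were measured for context. Elongation factors held the largest changes. Ell2, which extends transcripts and is needed for secretory immunoglobulin mRNA in plasma cells, was at 0.95, 0.49 and 0.88 in stimulated knockout cells, against 2.63, 1.85 and 1.89 in stimulated control cells, and at -1.10, -0.76 and -0.28 in resting knockout cells, against -0.57, -0.67 and -0.88. The stimulated knockout arrays lay above the resting arrays and below the stimulated control arrays. Ell2 rose by 1.49 in knockout (limma adjusted p = 0.00458) and 2.83 in control cells (limma adjusted p = 4.34e-05), and after stimulation it was lower by 1.35 in the knockout (limma adjusted p = 0.0288). It was the only called gene among 26 tested elongation factors in the genotype comparisons, but with quantile normalization the change of -1.09 did not pass (limma adjusted p = 0.0858), and with the detected-spot percentile Hexim1 was called as well (0.61, limma adjusted p = 0.0339). Its relative Ell3 fell, by 2.39 in knockout (limma adjusted p = 0.00024) and 3.29 in control cells (limma adjusted p = 1.82e-05). On stimulation 4 elongation genes rose in knockout cells, Ell2, Nelfe, Eaf2 and Ssrp1, and the same 4 with Tcea3 in control cells. Aff4 and Hexim1 fell in control cells, by 0.89 each.

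The remaining lists stand beside a share of all features called on stimulation of 16.1% in knockout and 27.8% in control cells. Of 5 other TFIIH genes, Mnat1, the assembly factor of its kinase, rose by 1.12 in knockout (limma adjusted p = 0.0102) and 1.09 in control cells (limma adjusted p = 0.00684), and Cdk7, Ccnh, Ercc2 and Ercc3 did not pass. Of 10 RNA polymerase I genes Polr1d and Polr1c rose in both genotypes and Cd3eap in control cells. Of 10 TFIIIB and TFIIIC genes Gtf3c5 rose in knockout and Gtf3a in control cells. None of 9 genes of polymerase assembly and tail modification passed on stimulation at an adjusted p of 0.05 in limma, against 3 higher at an unadjusted p under 0.05 in knockout cells and 3 higher and 1 lower in control cells. Sub1 was the only called gene among 5 regulators of Tbp. With the replicate block Btaf1 (-0.72, adjusted p = 0.043), Tbpl1 (0.47, 0.04995), Ssu72 (0.51, 0.048) and Bdp1 (-0.58, 0.0464) also passed in limma on stimulation of control cells.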

How the data were processed

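Amplified, Cy3-labelled RNA was hybridised to 12 Agilent mouse arrays. The deposited values are linear Cy3 intensities from which background had been subtracted by Agilent Feature Extraction 10.7.3.1 per the file headers, while the submitters' processing notes name version 9.1. The matrix of the whole series, also deposited, differed from these intensities by at most 0.497%, as rounding would give. Each array has 59305 non-control spots, and precision is limited by how many arrays there are.

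Outlier spots were set to missing, and the log2 intensities of an array were set relative to the 75th percentile of its non-control spots. Probes not well above background throughout any group were dropped. Probes were named through their transcript accession and a RefSeq table of the GRCm38.p6 build (26413 of 55681 probes), with the brightest probe standing for a gene, which left 22981 features. Version 3.58.1 of limma, run in R 4.3.3 with files read by version 1.17.8 of data.table, fitted 4 group means on 12 arrays (8 residual and 2.55 prior degrees of freedom), with Benjamini-Hochberg adjustment over all features and a threshold of 0.05. All adjusted p-values are from limma. The pipeline was tested on simulated data.

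The members, lists and roles were chosen with earlier results of these data known. The text names up to 8 called rises and 8 called falls per comparison without overlap between groups, the 4 smallest p where fewer than 4 were called, core subunits and paralogues, and the remaining called members; a part of the rule that ranked genes by brightness was not used, since levels of different probes cannot be compared. Genes of other lists and the second probes were named after their values were seen. Results of the RNA polymerase III list are not reported here.

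Deviations from group means correlated between same-numbered arrays by 0.35, 0.33 and 0.48 for the genotypes in stimulated cells and by 0.42, 0.43 and 0.51 for stimulation of control cells. In resting cells the correlations were -0.12, 0.20 and 0.39, and for stimulation of knockout cells 0.003, 0.15 and 0.39. The slide goes with the replicate number, so these values do not show that the arrays are paired. The main fit used no block, and results with the number as a block are given beside it. Alternatives covered blocks, scaling, background correction (normexp, offset 50), filters, probe choice, variance models and left-out arrays.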

Additional observations from a re-analysis of the deposited data

How the results depend on the processing

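No member was called between genotypes in resting cells under any of 27 other settings, nor in the interaction under any of 26. In stimulated cells the count of 0 became 1 (Med29) with the replicate block and with the slide as a block. It became 4 (Med29, Taf3, Taf6 and Taf5l) when probes had to be above background on all arrays, and 3 (Med29, Taf3 and Taf6) with trend and robust variances. It was 0 to 1 when each array was left out, the 1 again being Med29, without the second stimulated control array.

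Counts on stimulation depended on the settings more. In knockout cells the 9 calls became 4 in a fit on 2 groups only, 0 with median scaling, 15 (5 higher, 10 lower) with the percentile over detected spots, 7 higher and 2 lower with quantile normalization, 0 without a filter, 15 with the filter on all arrays, 15 with array weights and 0 on slide 1 alone. In control cells the 18 calls became 6 with 2 groups only, 1 (Taf9) with median scaling, 29 (10 higher, 19 lower) with the percentile over detected spots, 11 higher and 11 lower with quantile normalization, 4 without a filter, 4 without both arrays of control replicate 1, whose sex-linked transcripts stood apart, and 4 on slide 1 alone; the last 2 settings were chosen after seeing the data. Leaving out each array gave 1 to 12 calls in knockout cells, with 2 without either of the first 2 resting knockout arrays, 1 without the first stimulated knockout array and 4 without either of the other two. In control cells it gave 9 to 18 calls, with 10 and 9 without the first and the second resting control array. Taf9 was called in control cells under all 27 settings, Taf1d under 26, and Med25 and Polr2l under 25, while Gtf2a2 was called under 5. In knockout cells Taf1d was called under 24 of 27 settings, Taf9 under 23, Polr2l under 13, Med25 under 12 and Gtf2a2 under 11. No called member changed sign.

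With the replicate block the counts were 10 for stimulation of knockout cells, where Med30 was added (adjusted p = 0.0307), and 22 for stimulation of control cells. For the members the block changed no other call than those given with them.

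Median changes of the members moved with scaling. Between genotypes in stimulated cells the median was 0.033 with quantile normalization, -0.82 with median scaling and 0.14 with detected spots, and at rest it was -0.041, -0.93 and 0.027. On stimulation it was 0.095 with quantile normalization and -0.030 with detected spots in knockout cells, and 0.030 and -0.14 in control cells. Gtf2a1 at rest turned to 0.012 (adjusted p = 0.976) when its probes were averaged. On the second stimulated control array 24.3% of spots were well above background, and the part of this in the counts was tested only by leaving the array out.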
